A study of Danio rerio with 9 samples.

Results

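In Müller glia (MG) of injured mych-/- zebrafish retinas, 63 genes were more abundant than in either wild-type (WT) state. They were chosen by their measured values. Counts were scaled so that every library has the same total (CPM), and a gene was kept where its mean in mych-/- 2 dpi glia (2 days post injury) was at least 5 CPM and at least 2 times the mean of both WT groups, where its lowest mych-/- library lay above every WT library, and where its mean in WT 2 dpi glia was at least 0.5 CPM. The rule kept 63 of 23707 gene IDs, and all 63 were among the 20484 genes that passed the filter on low counts. That these genes are higher in mych-/- glia is therefore how they were found and is described with no test.

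MG are the radial glia of the retina. In zebrafish they respond to injury by reprogramming, entering the cell cycle and giving rise to progenitors that replace lost neurons. Mych is a fish paralogue of the Myc transcription factors, which pair with Max at E-box sequences and drive ribosome production, metabolism and cell division. Several of the genes described here belong to the cellular response to low oxygen. In that pathway prolyl hydroxylases of the Egln family mark Hif alpha subunits for degradation when oxygen is present, and stabilised Hif raises genes for glycolysis, for oxidative protein folding and for vessel growth, Vegfa among them.

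Each of the 3 groups held 3 libraries of polyA RNA from GFP+ cells sorted from retinas of gfap:GFP fish, in which the gfap promoter drives GFP in MG. The groups were MG of uninjured WT retinas, MG of WT retinas 2 days after needle poke injury, and MG of mych-/- retinas 2 days after the same injury. Per the study's methods the fish were adults of both sexes, retinas were pooled for sorting, and the mych allele was a CRISPR frameshift carried as a stable line. There was no uninjured mych-/- group, so an effect of the genotype that is present before injury cannot be told apart from one that follows it, and the labels do not say whether libraries came from separate pools of fish, so p-values measure only the spread between these libraries, which may be technical.

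The transcript of the mutated gene itself read 20.5, 9.91 and 24.1 CPM in WT uninjured, 186, 238 and 301 in WT 2 dpi and 153, 193 and 179 in mych-/- 2 dpi libraries. It rose with injury in WT glia (log2 change of 3.68 with SE 0.33, adjusted p = 7.61e-06 in edgeR) and remained abundant in mych-/- glia, at 0.725 times the WT 2 dpi mean (log2 change of -0.55 with SE 0.3, adjusted p = 0.335 in edgeR), so its level does not check the genotype labels of a frameshift line. Library totals ran from 46835977 to 77133615 counts. The 16 MG marker IDs summed to between 7275 and 12494 CPM in WT uninjured, 8614 and 12302 in WT 2 dpi and 7180 and 15450 in mych-/- 2 dpi libraries. Markers of neurons were present too, and the 19 cone IDs summed to more than the MG markers in every library, at 45621 to 64834, 14544 to 25956 and 20716 to 28177 CPM.

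The 63 genes together took up little of each library. Their summed level was 373 to 439 CPM in WT uninjured, 706 to 781 in WT 2 dpi and 1995 to 2269 in mych-/- 2 dpi libraries. Single genes ranged from a mean of 5.32 to 280 CPM in mych-/- glia, with a median of 15.0, and 6 reached 100 CPM. The ratio of the mych-/- mean to the larger WT mean ran from 2.01 to 10.7 with a median of 2.43, was at least 3 in 15 genes and at least 5 in 6. For 45 genes the larger WT mean was that of WT 2 dpi and for 18 that of uninjured glia. Of the 63 genes 47 have a name with a known role. They are described in 6 groups by function and a last group of 8 with no common role, and 16 have no name or role in the tables used.

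**Figure D1:**
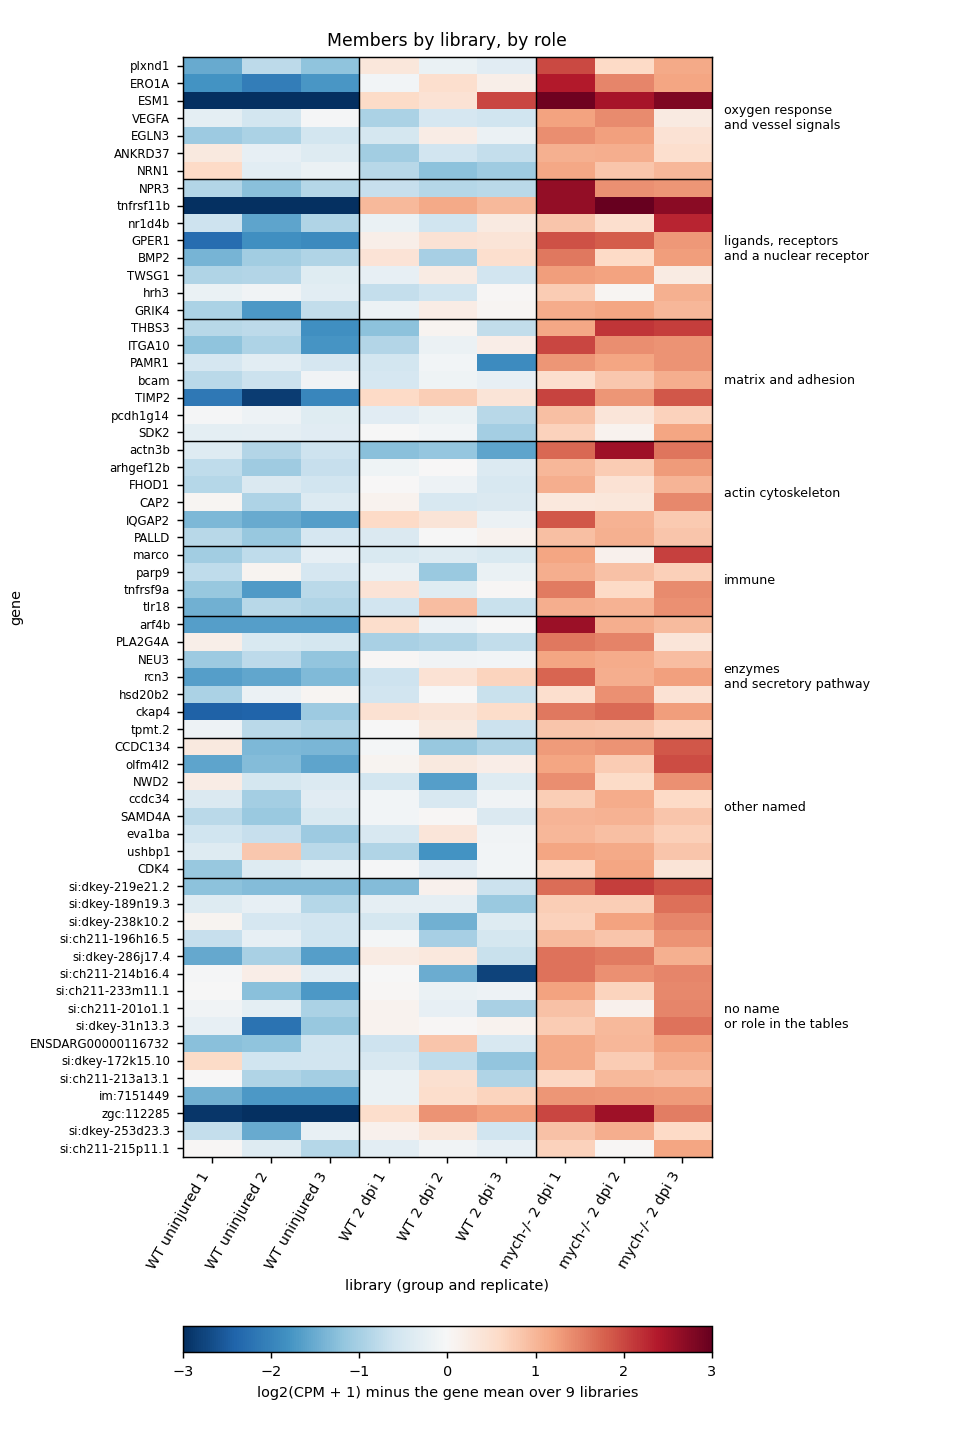
Level of each of the 63 genes (rows, grouped by role) in the 9 libraries (columns), as log2(CPM + 1) minus the gene's mean over the libraries, on a colour scale clipped at −3 and 3. The 3 mych-/- 2 dpi columns are the highest in every row, as the rule requires, while the WT 2 dpi columns lie above the uninjured ones in rows such as tnfrsf11b and ESM1 and below them in rows such as NRN1.

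For scale, over all 20484 genes tested 10.4% had every mych-/- library above every WT 2 dpi library. With edgeR's quasi-likelihood test, where a call needed an adjusted p no higher than 0.05 together with a log2 fold change beyond 0.5 in size, 0.366% of genes (75) were called higher in mych-/- than in WT 2 dpi glia, and 14 of the 63 were among them. In either direction edgeR called 347 genes between these groups, and DESeq2, at the same thresholds, called 1785 of the 23707 gene IDs. Against WT uninjured glia 16.3% of all genes were called higher in mych-/- 2 dpi glia, and 52 of the 63 were. The rule used these same contrasts, so nothing is read from these counts. Of the 14, 1 was still called without WT 2 dpi replicate 2 or without mych-/- replicate 1, 2 without WT 2 dpi replicate 3 and 8 without mych-/- replicate 3. The same rule turned to the other groups, without the floor on WT 2 dpi, found 66 genes highest in mych-/- 2 dpi glia, 412 highest in WT 2 dpi glia and 1093 highest in uninjured glia.

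The group for the oxygen response and vessel signalling, formed after the set was known, held 7 genes: VEGFA, EGLN3, ERO1A, ANKRD37, NRN1, ESM1 and plxnd1. Their ratios to the larger WT mean were 2.01 to 3.02. VEGFA (ENSDARG00000034700), the main growth factor for blood vessels, read 13.6, 11.2 and 16.2 CPM in WT uninjured, 8.12, 11.6 and 10.8 in WT 2 dpi and 40.2, 46.5 and 20.4 in mych-/- 2 dpi libraries. The WT groups overlapped and every mych-/- library was higher, the third least so. EGLN3, a prolyl hydroxylase that acts on Hif and is itself raised by Hif in mammals, read 15.7, 17.5 and 23.2 CPM in WT uninjured, 23.8, 40.6 and 30.5 in WT 2 dpi and 91.8, 81.9 and 46.5 in mych-/- 2 dpi libraries. Again the third mych-/- library was the lowest of its group. ERO1A, the endoplasmic reticulum oxidase that recharges protein disulphide isomerase and is a Hif target in mammals, read 10.2, 8.22 and 10.5 CPM in WT uninjured, 35.4, 53.5 and 42.7 in WT 2 dpi and 199, 105 and 86.6 in mych-/- 2 dpi libraries. Its groups formed 3 separate steps, lowest in uninjured and highest in mych-/- glia.

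ANKRD37 and NRN1 had another order. ANKRD37, an ankyrin repeat protein raised by low oxygen in human cells, read 20.5, 13.8 and 12.3 CPM in WT uninjured, 7.49, 10.8 and 9.66 in WT 2 dpi and 35.3, 36.3 and 23.9 in mych-/- 2 dpi libraries. It was called lower with injury in WT glia (log2 change of -0.79 with SE 0.28, adjusted p = 0.0384 in edgeR), a call lost in 9 of 15 other fits. Its mych-/- mean was 3.42 times that of WT 2 dpi but only 2.05 times that of uninjured glia. NRN1, which encodes neuritin, a membrane-anchored protein that promotes neurite growth, read 10.4, 5.06 and 5.65 CPM in WT uninjured, 3.22, 2.21 and 2.58 in WT 2 dpi and 15.9, 12.4 and 14 in mych-/- 2 dpi libraries. It fell with injury in WT glia (log2 change of -1.44 with SE 0.33, adjusted p = 0.00413 in edgeR), and the WT 2 dpi libraries were the lowest of all.

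A list of 57 IDs of genes known to respond to low oxygen was written after these genes had been seen. Of its 55 tested IDs, 6 were called higher and 17 lower with injury in WT glia, beside 22.3% and 19.8% of all genes. Summed levels were 10354.6 to 12453.5 CPM in WT uninjured and 8662.7 to 9669.2 in WT 2 dpi libraries. The mych-/- 2 dpi libraries, at 10575.7 to 14679.5 CPM, overlapped the uninjured ones. Between mych-/- and WT 2 dpi glia 40 of the 55 were above 0, with a median log2 fold change of 0.46 against 0.03 over all genes. The 4 IDs called were members of the set, as was EGLN3, which was not called. Without the 5 members, 35 of 50 IDs were above 0, with a median of 0.33. None of these 50 was called by edgeR, 5 were called by DESeq2 (1785 of all 23707 IDs were), and 13 had an unadjusted p under 0.05 (19.4% of all genes did). In 11 of the 50 (22%, against 10.4% of all genes) every mych-/- library exceeded every WT 2 dpi library, and in 2 every one was lower.

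Within that list the members were not the most abundant genes. LDHA, the lactate dehydrogenase of anaerobic glycolysis, read 577, 604 and 555 CPM in WT uninjured, 583, 529 and 542 in WT 2 dpi and 1151, 1125 and 805 in mych-/- 2 dpi libraries (log2 change of 0.83 with SE 0.21, adjusted p = 0.0709 in edgeR). It did not overlap between WT 2 dpi and mych-/- glia. PFKFB3, which makes the activator of phosphofructokinase, read 307, 309.8 and 336 CPM in WT uninjured, 289, 229.7 and 253 in WT 2 dpi and 475, 424 and 487 in mych-/- 2 dpi libraries (log2 change of 0.76 with SE 0.17, adjusted p = 0.0526 in edgeR), also without overlap. The glucose transporter SLC2A1 (ENSDARG00000001437) read 277, 272 and 216 CPM in WT 2 dpi and 525, 669.7 and 297 in mych-/- 2 dpi libraries, and 472, 467 and 601 in uninjured ones, so that mych-/- libraries overlapped the uninjured ones (log2 change of 0.92 with SE 0.3, adjusted p = 0.124 in edgeR between genotypes).

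The list was not uniform. HK2, a hexokinase, rose with injury in WT glia (log2 change of 5.08 with SE 0.38, adjusted p = 2.23e-06 in edgeR) and was lower in every mych-/- library, at 29.8, 30.3 and 30.4 CPM, than in the WT 2 dpi libraries, at 54.5, 69.9 and 50.8 CPM (log2 change of -1.03 with SE 0.32, adjusted p = 0.115 in edgeR). Of 13 regulators of the pathway, a list also written after the set was known, 5 were called lower with injury and none higher. Over all genes these shares were 19.8% and 22.3%. In mych-/- against uninjured glia 5 were above 0 and 8 below, with a median log2 fold change of -0.62. Their summed level was 1569 to 1901 CPM in WT uninjured and 1914 to 2426 in mych-/- 2 dpi libraries. Between genotypes 10 were above 0, with a median log2 fold change of 0.32. In 5 (38.5%, against 10.4% of all genes) every mych-/- library exceeded every WT 2 dpi library, and in none was every one lower. None of the 13 was called between genotypes by edgeR, 1 was called by DESeq2 and 2 had an unadjusted p under 0.05 (19.4% of all genes did). EPAS1 (ENSDARG00000057671), the Hif-2 alpha subunit, read 258, 275 and 387 CPM in WT uninjured, 185, 248 and 170.4 in WT 2 dpi and 515, 578 and 320.4 in mych-/- 2 dpi libraries (log2 change of 1.17 with SE 0.28, adjusted p = 0.0596 in edgeR). HIF1A (ENSDARG00000034293), the Hif-1 alpha subunit, read 1258, 1028 and 823 CPM in WT 2 dpi and 1662, 1103 and 1317 in mych-/- 2 dpi libraries (log2 change of 0.32 with SE 0.24, adjusted p = 0.508 in edgeR), and these libraries overlapped. Hif is regulated mainly through protein stability, which transcript levels do not measure.

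**Figure D2:**
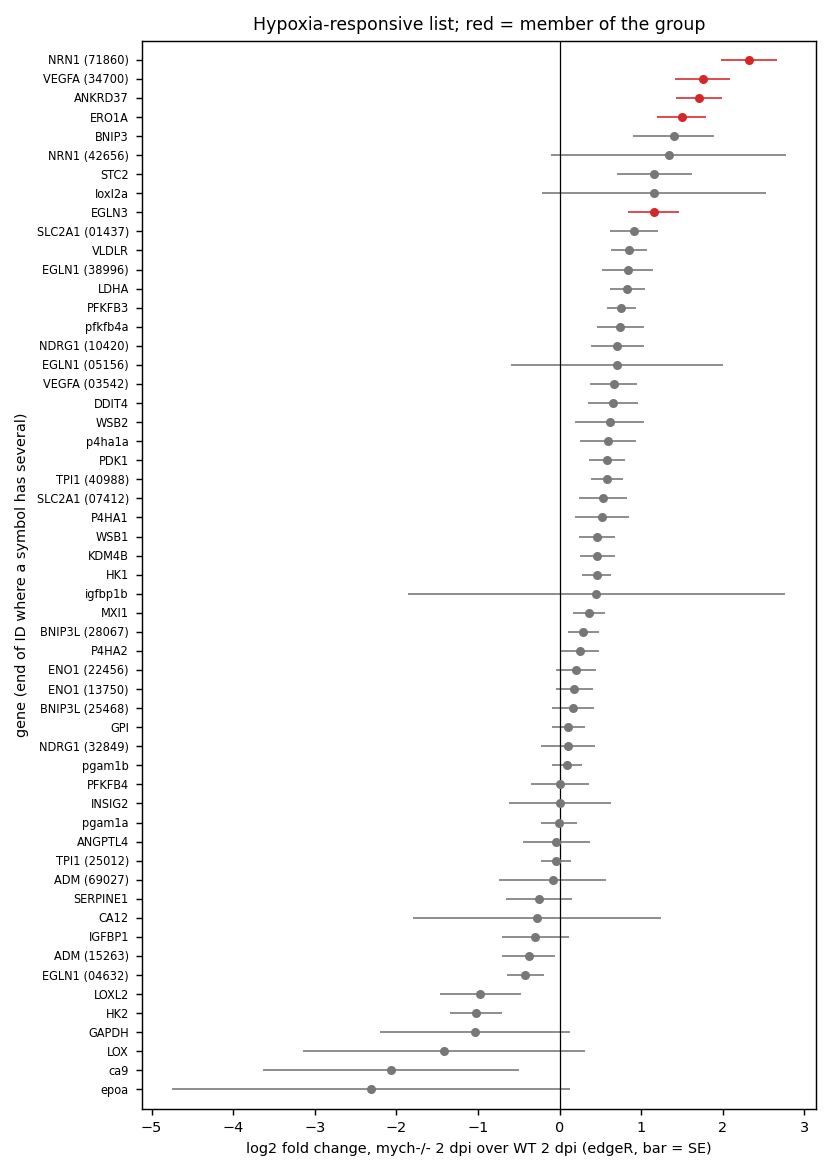
Log2 fold change between mych-/- 2 dpi and WT 2 dpi glia (horizontal axis, edgeR estimate, bars SE) of the 55 tested IDs of the list of genes that respond to low oxygen, with the 5 members of the set in red. Members and 35 of the 50 others lie to the right of 0, and HK2 lies at -1.03.

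Both remaining genes of this group are known from vessels. ESM1, which encodes endocan, a secreted proteoglycan of sprouting endothelium that Vegfa raises, read 1.08, 0.171 and 1.44 CPM in WT uninjured, 35.3, 31.7 and 96 in WT 2 dpi and 183, 132 and 168 in mych-/- 2 dpi libraries. It was nearly absent before injury and rose with it in WT glia (log2 change of 5.86 with SE 0.66, adjusted p = 4.07e-05 in edgeR), where 1 library read far above the other two, and all mych-/- libraries were higher still. plxnd1, a semaphorin receptor of developing vessels, read 0.795, 1.99 and 1.23 CPM in WT uninjured, 5.44, 3.45 and 3.06 in WT 2 dpi and 19.1, 6.7 and 10.3 in mych-/- 2 dpi libraries and also rose with injury (log2 change of 1.47 with SE 0.5, adjusted p = 0.0321 in edgeR).

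Of 15 tested genes for Vegf ligands, receptors and endocan, 5 were called higher with injury in WT glia and none lower, beside 22.3% and 19.8% of all genes. Between genotypes VEGFA was the only one called by edgeR. DESeq2 called none of the 13 outside the set, and 3 of them had an unadjusted p under 0.05. The receptor KDR read 79.7, 91.9 and 170.2 CPM in WT uninjured, 252, 382 and 171 in WT 2 dpi and 568, 342 and 345 in mych-/- 2 dpi libraries. It rose with injury (log2 change of 1.14 with SE 0.36, adjusted p = 0.0229 in edgeR) and its genotype difference was within the spread (log2 change of 0.57 with SE 0.35, adjusted p = 0.403 in edgeR). Its paralogue kdrl read 19.4, 31.1 and 13.5 CPM in WT 2 dpi and 49.9, 61 and 31.4 in mych-/- 2 dpi libraries, without overlap by a narrow margin (log2 change of 1.11 with SE 0.36, adjusted p = 0.13 in edgeR). Both NRP2 IDs, co-receptors for Vegf and semaphorins, rose with injury, with log2 fold changes of 4.25 and 3.56 (edgeR adjusted p = 1.1e-06 and 4.59e-07), and were 0.69 and 0.867 times the WT 2 dpi mean in mych-/- glia, neither called (adjusted p = 0.218 and 0.448).

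The group of ligands, receptors and a nuclear receptor held 8 genes. The most abundant of all 63 was tnfrsf11b, the soluble decoy receptor osteoprotegerin, which binds the ligand of RANK. It read 2.01, 1.09 and 2.36 CPM in WT uninjured, 77.3, 86.6 and 76.6 in WT 2 dpi and 244, 339 and 256 in mych-/- 2 dpi libraries. The libraries of each group were close to each other and the groups lay far apart, and the gene rose with injury in WT glia (log2 change of 5.39 with SE 0.3, adjusted p = 3.71e-07 in edgeR). The mych-/- mean was a further 3.49 times that of WT 2 dpi. Of 13 tested genes of the Tnf receptor superfamily, 7 were called higher and 1 lower with injury, beside 22.3% and 19.8% of all genes. Of the 11 outside the set none was called between genotypes by edgeR or DESeq2 and 2 had an unadjusted p under 0.05. tnfrsf11a, which encodes RANK itself, read 35.8, 37.9 and 29.3 CPM in WT 2 dpi and 47.9, 49.3 and 34.1 in mych-/- 2 dpi libraries (log2 change of 0.29 with SE 0.25, adjusted p = 0.596 in edgeR), with overlap.

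NPR3, the receptor that clears natriuretic peptides from the cell surface, read 2.84, 1.94 and 2.92 CPM in WT uninjured, 3.39, 2.89 and 2.998 in WT 2 dpi and 43.1, 17.3 and 16.8 in mych-/- 2 dpi libraries. The 6 WT libraries lay within a narrow band (log2 change of 0.2 with SE 0.38, adjusted p = 0.718 in edgeR with injury), and the lowest mych-/- library was 4.95 times the highest of them. Of the other natriuretic peptide genes, 10 were tested and none was called between genotypes by edgeR, 1 was called by DESeq2 and 1 had an unadjusted p under 0.05. The last was npr1a, a guanylyl cyclase receptor for the peptides, which rose with injury (log2 change of 2.42 with SE 0.36, adjusted p = 0.000234 in edgeR) and read 17.4, 19.2 and 10.6 CPM in WT 2 dpi and 10.8, 4.97 and 7.43 in mych-/- 2 dpi libraries (log2 change of -1.1 with SE 0.34, adjusted p = 0.113 in edgeR). The ligand gene nppb read 0, 0 and 0 CPM in WT uninjured, 2.38, 0.533 and 0.561 in WT 2 dpi and 2.94, 2.42 and 3.17 in mych-/- 2 dpi libraries (log2 change of 1.23 with SE 1.0, adjusted p = 0.557 in edgeR between genotypes).

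BMP2 and TWSG1 act in one pathway, BMP2 (ENSDARG00000013409) as a ligand and TWSG1 as a secreted protein that binds Bmps and modulates their activity. TWSG1 read 24.6, 24.6 and 35.9 CPM in WT uninjured, 39.3, 55.1 and 30.6 in WT 2 dpi and 112, 109 and 55.7 in mych-/- 2 dpi libraries. Its lowest mych-/- library was only 1.01 times the highest WT library, so the groups nearly touched. BMP2 was scarce, at 0.303, 0.641 and 0.816 CPM in WT uninjured, 3.49, 0.702 and 3.8 in WT 2 dpi and 9.1, 4.17 and 7.15 in mych-/- 2 dpi libraries, and 1 WT 2 dpi library stayed at the uninjured level. Of 28 other tested Bmp ligands, receptors and antagonists 20 were above 0 between genotypes, with a median log2 fold change of 0.42 against 0.03 over all genes. None of these 28 was called by edgeR or DESeq2 and 2 had an unadjusted p under 0.05. BMP7 (ENSDARG00000063230) read 12.5, 18.3 and 28 CPM in WT 2 dpi and 40.1, 70.5 and 24.7 in mych-/- 2 dpi libraries (log2 change of 1.14 with SE 0.42, adjusted p = 0.167 in edgeR), with overlap.

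GPER1, a G protein-coupled receptor for oestrogen, read 0.852, 1.56 and 1.44 CPM in WT uninjured, 9.26, 11.3 and 10.8 in WT 2 dpi and 33.4, 30.8 and 21.4 in mych-/- 2 dpi libraries and rose with injury in WT glia (log2 change of 2.94 with SE 0.35, adjusted p = 4.8e-05 in edgeR). GRIK4, a kainate receptor subunit, read 10.01, 5.38 and 11.6 CPM in WT uninjured, 17.7, 23.8 and 20.9 in WT 2 dpi and 44.5, 47.3 and 41.4 in mych-/- 2 dpi libraries and likewise rose (log2 change of 1.15 with SE 0.27, adjusted p = 0.00534 in edgeR). Of 45 tested glutamate receptor genes 31 were called lower with injury and 2 higher, GRIK4 being 1 of the latter, where 19.8% and 22.3% of all genes were. Between genotypes the family shared the direction of GRIK4. Of the 44 others 43 were above 0, with a median log2 fold change of 0.93, and 12 (27.3%, against 10.4% of all genes) had every mych-/- library above every WT 2 dpi library. An unadjusted p under 0.05 was found in 20 (in 19.4% of all genes), 1 was called by edgeR and 9 by DESeq2 (1785 of all 23707 IDs were). The histamine receptor hrh3 read 3.14 ± 0.284 CPM in WT uninjured, 2.62 ± 1.06 in WT 2 dpi and 6.7 ± 2.55 in mych-/- 2 dpi libraries (SD, n = 3), with only a narrow gap between its lowest mych-/- and highest WT library. nr1d4b, a nuclear receptor of the Rev-erb subfamily, whose members repress clock genes, read 3.86, 1.47 and 2.997 CPM in WT uninjured, 5.47, 3.87 and 8.02 in WT 2 dpi and 12.3, 9.53 and 35.3 in mych-/- 2 dpi libraries. The third mych-/- library stood far above the other two. On a fixed list of circadian clock genes 15 of 23 were called lower with injury and 1 higher, beside 19.8% and 22.3% of all genes. The list stayed below its uninjured level in mych-/- glia, with sums of 2606.5 to 4169 CPM against 5154 to 5783. In that contrast 10 of the 23 were called lower (1952 of all 20484 genes were) and 1 higher (16.3% were), with a median log2 fold change of -0.69. Between genotypes 18 were above 0 with a median log2 fold change of 0.48 against 0.03 over all genes. In 10 of 23 (43.5%, against 10.4% of all genes) every mych-/- library exceeded every WT 2 dpi library. None of these 23 was called between genotypes by edgeR, 4 were by DESeq2 (1785 of all 23707 IDs were) and 10 had an unadjusted p under 0.05 (19.4% of all genes did).

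Genes for matrix and adhesion numbered 7. THBS3 (thrombospondin, a matrix glycoprotein) read 2.88, 3.01 and 0.935 CPM in WT uninjured, 1.96, 6.33 and 3.16 in WT 2 dpi and 14.4, 29.6 and 28 in mych-/- 2 dpi libraries. Its WT groups overlapped, and its mych-/- mean was 6.28 times that of WT 2 dpi. TIMP2, an inhibitor of matrix metalloproteinases, read 4.35, 2.31 and 5.13 CPM in WT uninjured, 34.9, 38.2 and 30.1 in WT 2 dpi and 96.3, 58 and 85.2 in mych-/- 2 dpi libraries. It was the only one of the 7 called with injury (log2 change of 3.06 with SE 0.29, adjusted p = 1.01e-05 in edgeR). ITGA10, an integrin subunit for collagen, read 0.492, 0.79 and 0 CPM in WT uninjured, 0.852, 2.05 and 2.94 in WT 2 dpi and 12.8, 8.06 and 7.79 in mych-/- 2 dpi libraries, and PAMR1, a secreted protein named for muscle regeneration, read 3.2, 3.72 and 3.2 CPM in WT uninjured, 3.04, 4.59 and 0.605 in WT 2 dpi and 13.7, 12.4 and 13.9 in mych-/- 2 dpi libraries. ITGA10 was at or near 0 before injury, while PAMR1 was present and did not change clearly (log2 change of -0.4 with SE 0.53, adjusted p = 0.592 in edgeR).

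The other 3 were adhesion proteins of the cell surface, with ratios of 2.07 to 2.62. The laminin receptor bcam read 1.97 ± 0.786 CPM in WT uninjured, 2.41 ± 0.444 in WT 2 dpi and 6.31 ± 1.48 in mych-/- 2 dpi libraries (SD, n = 3). SDK2, a synaptic adhesion protein of the inner retina, read 24.7 ± 0.544 CPM in WT uninjured, 24.7 ± 8.73 in WT 2 dpi and 51.2 ± 18.7 in mych-/- 2 dpi libraries, and the clustered protocadherin pcdh1g14 read 2.52 ± 0.421 CPM in WT uninjured, 1.95 ± 0.642 in WT 2 dpi and 5.32 ± 1.16 in mych-/- 2 dpi libraries. The last of these genes belongs to a family whose members resemble each other closely, so its reads may be shared. Of 78 tested cadherins and protocadherins 43 were called lower with injury, where 19.8% of all genes were. Of the 77 other than pcdh1g14, 62 were above 0 between genotypes, with a median log2 fold change of 0.51, so that this direction was common in the family. Of these 77 edgeR called 1 and DESeq2 4 (it called 1785 of all 23707 IDs).

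Among 6 genes for actin and its regulators, actn3b stood apart. It encodes the alpha-actinin of fast muscle fibres, which cross-links actin, and read 3.33, 2.05 and 2.67 CPM in WT uninjured, 1.35, 1.55 and 0.886 in WT 2 dpi and 17.8, 32.1 and 16.3 in mych-/- 2 dpi libraries. It fell with injury in WT glia (log2 change of -1.16 with SE 0.38, adjusted p = 0.0265 in edgeR), and its mych-/- mean was 17.5 times that of WT 2 dpi. The 24 IDs of a list for skeletal muscle, also written after the set was known, summed to 120 to 193 CPM in WT uninjured, 46.4 to 82.6 in WT 2 dpi and 95.1 to 122 in mych-/- 2 dpi libraries. They thus followed the same order between the injured groups, though below the uninjured level or overlapping it. Of 18 tested, 11 were above 0 between genotypes and 7 below, with a median log2 fold change of 0.40 against 0.03 over all genes. In 2 (11.1%, against 10.4% of all genes) every mych-/- library exceeded every WT 2 dpi library. None of the 18 was called between genotypes by edgeR or by DESeq2 and 3 had an unadjusted p under 0.05, and 14 of the 24 IDs stayed under 1 CPM in every group. The genes named next were picked after their values were seen and did not follow the summed level of the list. The close paralogue actn3a read 0, 1.92 and 2.98 CPM in WT 2 dpi and 0.762, 0.454 and 0.338 in mych-/- 2 dpi libraries, and muscle creatine kinase ckma was at 0 in all mych-/- and uninjured libraries. The part of muscle RNA in the level of actn3b was not tested.

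The remaining actin genes had ratios of 2.08 to 2.31. arhgef12b, an exchange factor that activates RhoA, was the most abundant, with 41.4, 33.8 and 43.5 CPM in WT uninjured, 65.5, 71.8 and 53.5 in WT 2 dpi and 143, 122 and 175 in mych-/- 2 dpi libraries, and rose with injury (log2 change of 0.61 with SE 0.17, adjusted p = 0.014 in edgeR). PALLD, which encodes the actin scaffold palladin, read 28.8, 22.9 and 36.5 CPM in WT uninjured, 38.1, 51.1 and 55.6 in WT 2 dpi and 97.3, 109.8 and 93.6 in mych-/- 2 dpi libraries and rose as well (log2 change of 0.65 with SE 0.23, adjusted p = 0.0394 in edgeR). IQGAP2, a scaffold for Cdc42 and actin, rose the most of them (log2 change of 2.08 with SE 0.34, adjusted p = 0.000542 in edgeR) and read 36.4, 20.2 and 16.9 CPM in mych-/- 2 dpi libraries. The formin FHOD1 and the cyclase-associated protein CAP2 read 14.9 ± 3.63 and 16.3 ± 8.25 CPM in mych-/- 2 dpi libraries (SD, n = 3), and neither was called with injury (edgeR adjusted p = 0.325 and 0.88).

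Of 7 enzymes and proteins of the secretory pathway, PLA2G4A (ENSDARG00000017141) encodes the cytosolic phospholipase A2 that releases arachidonic acid from membranes, and read 16.1, 9.93 and 9.39 CPM in WT uninjured, 6.64, 7.12 and 8.08 in WT 2 dpi and 44.3, 41.6 and 18.3 in mych-/- 2 dpi libraries. The WT 2 dpi libraries lay below all uninjured ones and the mych-/- libraries above both, with a mean 4.77 times that of WT 2 dpi. Downstream of it PTGS2 (ENSDARG00000010276), the inducible cyclooxygenase, read 399.8, 290.2 and 626 CPM in WT uninjured, 171, 375 and 438 in WT 2 dpi and 800.1, 1279.7 and 386 in mych-/- 2 dpi libraries (log2 change of 1.27 with SE 0.48, adjusted p = 0.183 in edgeR), with overlap. Of 20 other tested genes for prostaglandin synthesis and signalling 13 were above 0, and none was called by edgeR or DESeq2, while 3 had an unadjusted p under 0.05.

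ckap4 and rcn3 encode proteins of the endoplasmic reticulum, the first a sheet-forming membrane protein and the second a calcium-binding reticulocalbin. They read 0.909, 0.961 and 3.86 CPM in WT uninjured, 13.3, 12.5 and 14.1 in WT 2 dpi and 30.04, 32.4 and 23.6 in mych-/- 2 dpi libraries for ckap4 and 0.625, 0.726 and 1.04 CPM in WT uninjured, 2.35, 5.92 and 7.09 in WT 2 dpi and 16.3, 9.94 and 10.9 in mych-/- 2 dpi libraries for rcn3. Both rose with injury (log2 change of 2.7 with SE 0.51, adjusted p = 0.0014 in edgeR for ckap4 and log2 change of 2.61 with SE 0.49, adjusted p = 0.00117 in edgeR for rcn3). With ERO1A they belong to a list of 29 folding and collagen-handling genes, written after the set was known, of which 18 were called higher with injury and none lower (over all genes 22.3% and 19.8%). The 26 others on the list did not follow them between genotypes, where 10 were above 0 with a median of −0.17. None of these was called by edgeR, 2 were by DESeq2 (1785 of all 23707 IDs were) and 3 had an unadjusted p under 0.05. PLOD2, a collagen lysyl hydroxylase, read 117, 187 and 124 CPM in WT 2 dpi and 95.7, 82.8 and 74.3 in mych-/- 2 dpi libraries (log2 change of -0.83 with SE 0.26, adjusted p = 0.118 in edgeR), lower in every mych-/- library.

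arf4b, a small GTPase of Golgi transport, had no count in any uninjured library and read 3.55, 1.82 and 2.14 CPM in WT 2 dpi and 17.5, 5.67 and 5.07 in mych-/- 2 dpi libraries. Against a floor of 3 counts per uninjured library it was at least 45.5-fold higher in WT 2 dpi glia and at least 171-fold higher in mych-/- glia. NEU3, a sialidase of the plasma membrane, read 1.78, 2.43 and 1.62 CPM in WT uninjured, 5.11, 4.56 and 4.65 in WT 2 dpi and 12.6, 11.8 and 10.3 in mych-/- 2 dpi libraries and rose with injury (log2 change of 1.22 with SE 0.34, adjusted p = 0.0124 in edgeR). The steroid dehydrogenase hsd20b2 read 22 ± 7.61 CPM in WT uninjured, 20.5 ± 5.55 in WT 2 dpi and 49.3 ± 19.7 in mych-/- 2 dpi libraries, and the thiopurine methyltransferase tpmt.2 read 1.72 ± 0.824 CPM in WT uninjured, 2.87 ± 1.2 in WT 2 dpi and 5.9 ± 0.493 in mych-/- 2 dpi libraries (SD, n = 3). Neither of the latter was called with injury.

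The immune genes were few and scarce. marco, a scavenger receptor of macrophages, read 0.53, 0.854 and 1.66 CPM in WT uninjured, 1.3, 1.39 and 1.27 in WT 2 dpi and 6.11, 2.42 and 11.9 in mych-/- 2 dpi libraries, and its mych-/- libraries differed from each other by 4.92 times. tlr18, a Toll-like receptor of fish, read 0.227, 0.875 and 0.771 CPM in WT uninjured, 1.22, 5.3 and 1.08 in WT 2 dpi and 6.09, 5.82 and 7.67 in mych-/- 2 dpi libraries, and 1 WT 2 dpi library reached nearly the mych-/- level. tnfrsf9a, the receptor 4-1BB, read 0.492, 0 and 0.86 CPM in WT uninjured, 3.33, 1.52 and 2.36 in WT 2 dpi and 8.61, 3.95 and 7.79 in mych-/- 2 dpi libraries. parp9, an ADP-ribosyltransferase raised by interferon in mammals, read 2.8 ± 1.15 CPM in WT uninjured, 2.54 ± 1.12 in WT 2 dpi and 8.07 ± 1.24 in mych-/- 2 dpi libraries (SD, n = 3). None of the 4 was called with injury in WT glia (edgeR adjusted p = 0.0543 to 0.765).

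marco is the only one of the 63 genes on any of 19 cell type lists. The 17 IDs of the list for microglia and macrophages summed to 108 to 164 CPM in WT uninjured, 250 to 304 in WT 2 dpi and 262 to 315 in mych-/- 2 dpi libraries. With injury 7 of them were called higher and 1 lower, beside 22.3% and 19.8% of all genes. Between genotypes none was called by edgeR, and only marco, which the rule had chosen for this difference, was called by DESeq2 or had an unadjusted p under 0.05. In that contrast 8 of the 17 were above 0 and 9 below. Without marco 7 of 16 were above 0, with a median log2 fold change of -0.11. The defining marker csf1ra read 8.46, 6.49 and 2.81 CPM in WT 2 dpi and 12, 3.41 and 7.01 in mych-/- 2 dpi libraries. For ptprc, the pan-leukocyte marker CD45, the values were 7.72, 4.37 and 3.03 and 8.7, 4.65 and 8.16 CPM. The myeloid factor SPI1 gave 1.91, 4.15 and 2.69 and 3.61, 5.29 and 4.8 CPM. These markers overlapped between the injured groups. For marco the rule itself required no overlap, so nothing is read from that contrast. In bulk libraries fewer cells of a type and less RNA per cell cannot be told apart.

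**Figure D3:**
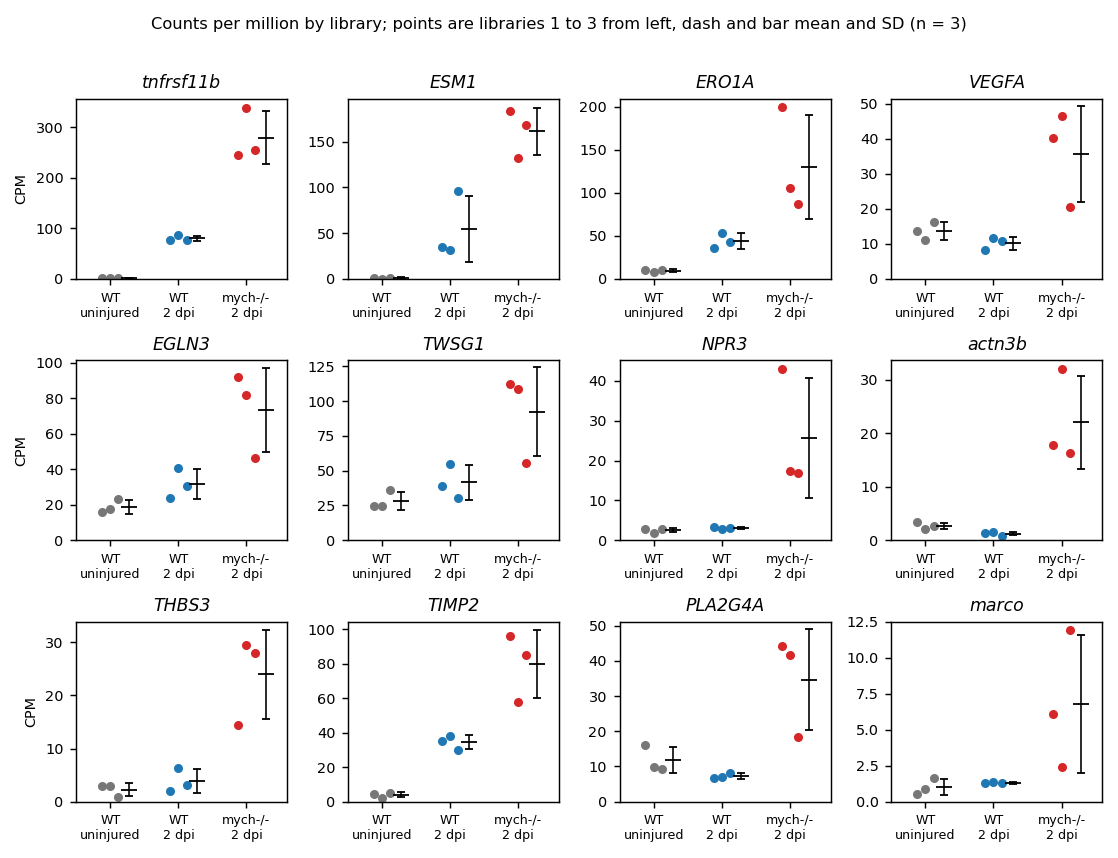
CPM by library (points, linear axes that start at 0, each panel with its own range) of 12 of the 63 genes in WT uninjured (grey), WT 2 dpi (blue) and mych-/- 2 dpi (red) libraries, with mean and SD of 3 libraries in black. tnfrsf11b, ESM1, ERO1A and TIMP2 climb in steps from uninjured to WT 2 dpi to mych-/- glia, whereas VEGFA, NPR3, actn3b and PLA2G4A were not called higher with injury. For NPR3 and actn3b the lowest mych-/- library is 4.95 and 4.88 times the highest WT library. For VEGFA and PLA2G4A it is only 1.26 and 1.14 times that library.

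The other named genes had no common role. NWD2, a protein with NACHT and WD repeat domains, was abundant at 53, 31.2 and 33.9 CPM in WT uninjured, 30.7, 13.8 and 34.6 in WT 2 dpi and 120.2, 67.7 and 118 in mych-/- 2 dpi libraries. CDK4, the cyclin-dependent kinase of the G1 phase, read 4.13 ± 1.59 CPM in WT uninjured, 5.67 ± 0.711 in WT 2 dpi and 11.7 ± 3.67 in mych-/- 2 dpi libraries, and SAMD4A, an RNA-binding translational repressor, read 6.29 ± 1.67 CPM in WT uninjured, 10.2 ± 1.82 in WT 2 dpi and 23.4 ± 1.85 in mych-/- 2 dpi libraries (SD, n = 3). The coiled-coil protein ccdc34, the harmonin-binding ushbp1, eva1ba and olfm4l2 read means of 8.47, 15.4, 5.55 and 6.84 CPM in mych-/- 2 dpi libraries. Of these, olfm4l2 was all but absent before injury, at 0, 0.214 and 0 CPM, and rose with it (log2 change of 5.05 with SE 1.16, adjusted p = 0.00431 in edgeR).

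Among the 16 genes with no name or role, si:dkey-219e21.2 had the largest ratio of all 63, at 10.7 times the WT 2 dpi mean. It read 0.0568, 0 and 0 CPM in WT uninjured, 0, 1.69 and 0.591 in WT 2 dpi and 6.93, 9.4 and 8.11 in mych-/- 2 dpi libraries. The most abundant of them was si:ch211-214b16.4, with 23.4, 27.7 and 19.2 CPM in WT uninjured, 23.7, 7.88 and 2.63 in WT 2 dpi and 75.9, 63.4 and 68.5 in mych-/- 2 dpi libraries. Its WT 2 dpi libraries differed widely from each other. zgc:112285 read 0.151, 0 and 0 CPM in WT uninjured, 11.6, 21.4 and 19.7 in WT 2 dpi and 33.9, 49.9 and 24.5 in mych-/- 2 dpi libraries, close to absent before injury (log2 change of 8.4 with SE 0.8, adjusted p = 1.27e-05 in edgeR with injury). The ratios of si:dkey-189n19.3, si:dkey-238k10.2, si:ch211-196h16.5 and si:dkey-286j17.4 to the larger WT mean were 4.29, 3.44, 3.21 and 2.98, and those of the remaining 9 lay between 2.01 and 2.59.

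The comparison of WT 2 dpi with WT uninjured glia asks how these genes respond to injury where Mych is intact. In that comparison 20 of the 63 genes (31.7%) were called higher, beside 22.3% of all 20484 genes, and 3 (4.76%) were called lower, beside 19.8% of all genes. The median log2 fold change of the 63 was 0.64 against −0.02 over all genes, and it stayed at 0.64 with arf4b at its lower bound. The rule bounded both WT means from above and the WT 2 dpi mean from below, so these shares are a description and not independent of it. Of the 40 genes not called, 24 were above and 16 below 0.

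By role, 4 of 8 ligands, receptors and the nuclear receptor were called higher with injury, beside 22.3% of all genes. So were 4 of 7 enzymes and secretory pathway genes, 3 of 7 oxygen and vessel genes and 3 of 6 actin genes. The counts were 4 of 16 genes without a role, 1 of 7 matrix and adhesion genes, 1 of 8 other named genes and none of the 4 immune genes. These groups were formed with the members known and hold few genes, so no difference between roles is read from the counts. Those called lower, beside 19.8% of all genes, were ANKRD37 and NRN1, both placed here in the oxygen and vessel group, and actn3b. The genes with the highest mych-/- levels include both patterns. tnfrsf11b, ESM1 and ERO1A rose strongly with injury, arhgef12b and PALLD modestly, while NWD2, at 102 CPM in mych-/- glia, was not called (log2 change of -0.62 with SE 0.33, adjusted p = 0.158 in edgeR).

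The calls with injury held up unevenly. In each of 15 other fits 16 of the 23 genes remained called, 15 of them higher and NRN1 lower. The other 7 were lost in some fits. ANKRD37 was lost in 9 of the 15, BMP2 in 7, PALLD in 6 and plxnd1 in 5. The call of actn3b was lost in 4, that of si:dkey-219e21.2 in at least 4 and that of arhgef12b in 2. No fit turned the direction of any of the 23.

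**Figure D4:**
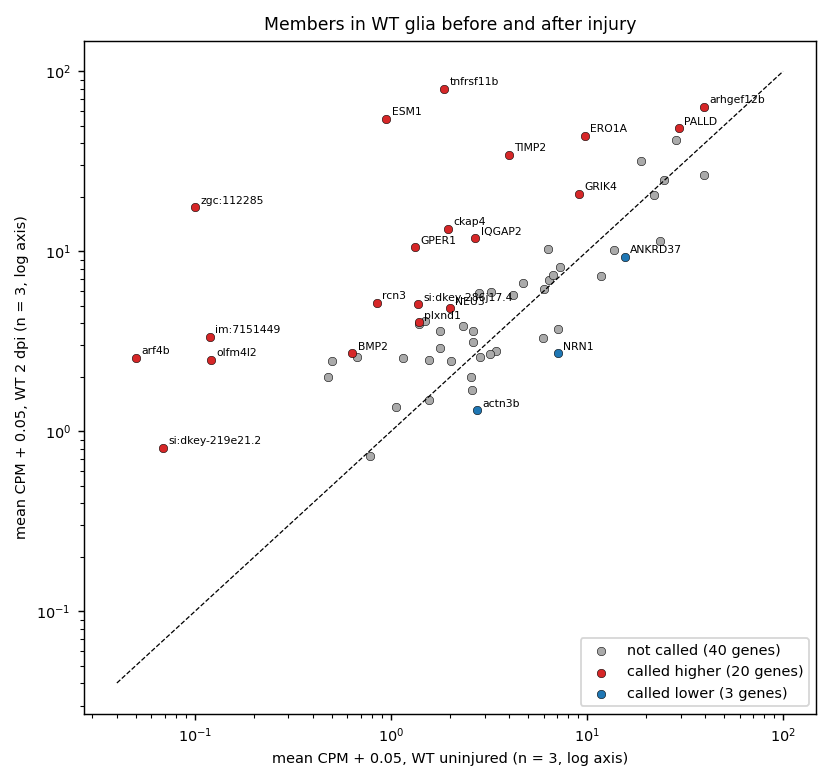
Mean CPM of the 63 genes in WT 2 dpi glia (vertical) against WT uninjured glia (horizontal), both plus 0.05 on log axes, n = 3 libraries each, coloured by edgeR's call with injury. The 20 genes called higher lie above the dashed line of equality, the 3 called lower lie below it, and 40 grey genes scatter around it.

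Some symbols belong to several IDs, and their copies differed. The set holds 10 symbols that are shared with 12 other IDs, of which 11 were tested, none was called between genotypes by edgeR and 4 were called with injury (8621 of all 20484 genes were). The second VEGFA ID (ENSDARG00000103542) was the more abundant one, at 94.9, 61.5 and 112 CPM in WT uninjured, 94.3, 158 and 132 in WT 2 dpi and 227, 255 and 157 in mych-/- 2 dpi libraries, with a smaller genotype difference (log2 change of 0.66 with SE 0.29, adjusted p = 0.232 in edgeR). The second PLA2G4A ID (ENSDARG00000024546) read 23.6, 41.1 and 19.8 CPM in WT 2 dpi and 35.4, 37.4 and 31.2 in mych-/- 2 dpi libraries and overlapped (log2 change of 0.24 with SE 0.32, adjusted p = 0.76 in edgeR). The second TIMP2 ID (ENSDARG00000061226) rose with injury (log2 change of 1.42 with SE 0.29, adjusted p = 0.00204 in edgeR) and was 0.886 times the WT 2 dpi mean in mych-/- glia. The second BMP2 ID (ENSDARG00000041430) rose too (log2 change of 1.23 with SE 0.4, adjusted p = 0.0275 in edgeR) and was 1.07 times it. The other PAMR1 ID (ENSDARG00000093480) and SDK2 ID (ENSDARG00000102161) fell with injury, unlike those in the set. Their log2 changes were -2.1 with SE 0.42 and -1.49 with SE 0.51 (edgeR adjusted p = 0.00176 and 0.035).

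The pair of CCDC134 IDs had opposite orders between the injured groups. The ID in the set (ENSDARG00000103285) read 2.18, 0.0214 and 0 CPM in WT uninjured, 1.46, 0.182 and 0.384 in WT 2 dpi and 5.28, 5.6 and 8.47 in mych-/- 2 dpi libraries, while ENSDARG00000030508 read 2.69, 4.55 and 1.17 CPM in WT uninjured, 4.94, 5.36 and 8.71 in WT 2 dpi and 1.82, 2.2 and 1.81 in mych-/- 2 dpi libraries. Their summed level was 6.401, 5.54 and 9.097 CPM in WT 2 dpi and 7.103, 7.805 and 10.28 in mych-/- 2 dpi libraries, which overlap. The IDs share a symbol, and how alike their sequences are was not examined. Whether the authors' counting split reads differently between them was not tested, and the ratio of 8.8 for the first ID is uncertain.

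Markers of inner retinal neurons moved with the groups as well. Of the tested bipolar, amacrine and retinal ganglion cell markers 12 of 13, 10 of 13 and 8 of 16 were called lower with injury, where 19.8% of all genes were. In mych-/- against WT 2 dpi glia their median log2 fold changes were 0.77, 0.83 and 1.11, with 11 of 13, 13 of 13 and 13 of 16 above 0. None was called by edgeR, 1, 2 and 3 were called by DESeq2 (1785 of all 23707 IDs were), and 7, 5 and 11 had an unadjusted p under 0.05 (19.4% of all genes did). Summed levels in mych-/- libraries were 547 to 825 CPM for bipolar, 1259 to 2970 for amacrine and 759 to 1528 for retinal ganglion cells, against 311 to 473, 780 to 1891 and 619 to 933 in WT 2 dpi libraries. They overlapped the uninjured ranges of bipolar (805 to 1539) and retinal ganglion cells (1318 to 1828) but not of amacrine cells (3705 to 4995). Rod and cone markers also fell with injury, with 17 of 20 and 15 of 19 called lower. Between genotypes 9 of 20 rod and 12 of 19 cone markers were above 0, with median log2 fold changes of -0.11 and 0.08. None of them was called by edgeR, and DESeq2 called 0 and 1. Of 8 horizontal cell markers 4 were called lower with injury, and 6 were above 0 between genotypes with a median of 0.40. No gene of the set is on any of these lists. The part of neuronal RNA in the values of NRN1, SDK2, GRIK4 or others of the set was not tested.

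For vessels the 16 endothelial IDs summed to 143 to 248 CPM in WT uninjured, 322 to 554 in WT 2 dpi and 482 to 711 in mych-/- 2 dpi libraries, and most of this was KDR. None was called between genotypes by edgeR or DESeq2 and 3 had an unadjusted p under 0.05. Between genotypes 7 of the 16 were above 0 and 9 below, and with injury 5 were called higher and 1 lower, beside 22.3% and 19.8% of all genes. In 1 of the 16 (6.25%, against 10.4% of all genes), kdrl, every mych-/- library exceeded every WT 2 dpi library. ERG and EGFL7 stayed under 1 CPM in every library. TIE1 read 9.41, 10.05 and 3.1 CPM in WT 2 dpi and 3.63, 1.22 and 3.09 in mych-/- 2 dpi libraries. The MG markers themselves were not called between genotypes by edgeR or DESeq2 (2 of 16 with an unadjusted p under 0.05). GFAP read 122, 166 and 240.4 CPM in WT uninjured, 594, 785 and 636 in WT 2 dpi and 649, 1154 and 650.1 in mych-/- 2 dpi libraries and rose with injury (log2 change of 1.84 with SE 0.33, adjusted p = 0.000955 in edgeR). The retinal pigment epithelium list summed to 469 CPM in 1 WT 2 dpi library and to 48.1 to 133 CPM in the other 8.

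**Figure D5:**
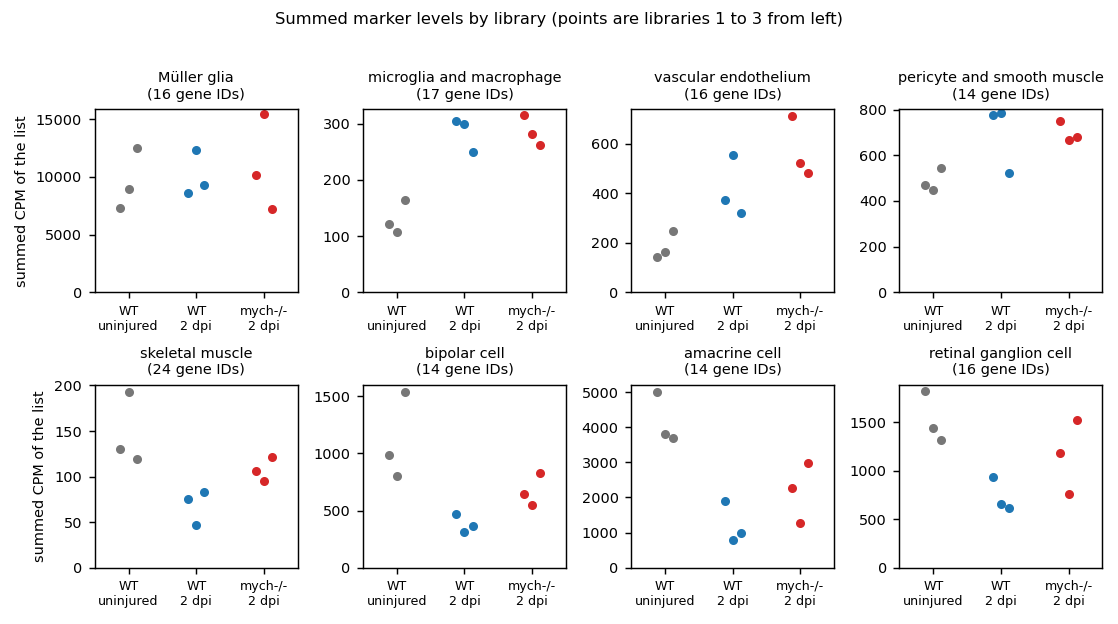
Summed CPM of the marker IDs of 8 cell types (panels, axes from 0) in WT uninjured (grey), WT 2 dpi (blue) and mych-/- 2 dpi (red) libraries, 1 point per library. Microglial sums overlap between WT 2 dpi and mych-/- libraries, the skeletal muscle and bipolar cell sums are lower in every WT 2 dpi library than in every other library, and amacrine cell sums are highest in uninjured glia.

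Over 39 fixed lists and families, 13 tested IDs were called between genotypes, and 2 of them, NPR3 and PLA2G4A, belong to the set. Of those outside it with a mean of at least 5 CPM in some group, INSM1 (ENSDARG00000091756), MEGF11, GRIA3, SLC35G2, SLC38A3, pcdh1gb2 and SEMA6C were higher in mych-/- glia, by 1.45 to 2.1 on the log2 scale. All 7 had fallen with injury in WT glia, where 19.8% of all genes were called lower. The replicate block gave 4 such calls in place of 13, and DESeq2 126. MEGF11, listed here with engulfment receptors and bridging proteins, read 23.2, 12.7 and 17.3 CPM in WT uninjured, 5.1, 2.6 and 2.73 in WT 2 dpi and 13.6, 6.96 and 27.9 in mych-/- 2 dpi libraries. CLDN11 and CRABP2 were lower in mych-/- glia (log2 fold change -1.55 and -1.95, edgeR adjusted p = 0.0403 and 0.0387) after a rise with injury, where 22.3% of all genes were called higher. These genes were chosen by a contrast that uses the same WT 2 dpi libraries as the injury contrast. Opposite directions in the 2 contrasts are thereby favoured, and nothing is read from them.

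Of the 75 genes called higher in mych-/- than in WT 2 dpi glia 61 are not in the set. Of these 56 were called lower with injury, where 19.8% of all genes were. For 57 the mych-/- mean was under 2 times the uninjured mean, which the rule does not allow. Both contrasts use the same WT 2 dpi libraries, so low values there favour both calls, and nothing is read from these counts.

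The mych-/- libraries were not equal in these genes. The first was the highest of its group for 28 genes, the third for 19 and the second for 16, and the third was the lowest for 28, the second for 25 and the first for 10. The ratio of the highest to the lowest mych-/- library had a median of 1.64 and ran from 1.02 to 4.92 in marco. It was under 1.5 in 23 genes and above 3 in 3, namely arf4b, marco and nr1d4b. None of the 7 oxygen and vessel genes and none of the 7 enzymes and secretory pathway genes was highest in the third library, which was the lowest for 4 and 6 of them, whereas 8 of the 16 genes without a role were highest there. The roles were assigned after the set was known and hold few genes. The share over all genes was not counted, so no difference between roles is read from this. TMM scaling lowers the levels of libraries with a factor above 1. Its factors were 1.06, 0.982 and 1.13 in mych-/- 2 dpi libraries. In WT 2 dpi they were 1.03, 1.02 and 0.944 and in WT uninjured 1.03, 0.898 and 0.93. With library sizes so scaled 49 of the 63 genes still met the rule. The 14 lost came from every role but the immune one, with ANKRD37 and NRN1 among them.

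Genes lay close to the threshold on both sides. The 5 members with a symbol just inside it were NRN1, si:ch211-215p11.1, si:dkey-253d23.3, ANKRD37 and tpmt.2, at 2.01 to 2.06 times the larger WT mean. The 5 genes just outside it that met the other conditions were abcc13, il34, gfra1a, TMED8 and KIF16B, at 1.98 to 1.99 times. Of the latter il34, a cytokine ligand of the Csf1 receptor, read 4.73, 3.39 and 1.54 CPM in WT uninjured, 9.78, 14.5 and 11.4 in WT 2 dpi and 27.7, 24 and 19 in mych-/- 2 dpi libraries, and gfra1a, a co-receptor for Gdnf, read 44.4, 28.8 and 28.6 CPM in WT uninjured, 36.6, 29.2 and 32.5 in WT 2 dpi and 66.8, 62 and 73 in mych-/- 2 dpi libraries. In all 354 genes had ratios between 1 and 2 and met the other conditions.

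The floor on WT 2 dpi left out 3 genes. plxnb2a.2, a plexin, read 3.24, 1.58 and 3.86 CPM in WT uninjured, 0, 0 and 0.31 in WT 2 dpi and 17.5, 35.6 and 11.2 in mych-/- 2 dpi libraries. c3b.1, a complement component, read 0.492, 1.15 and 1.38 CPM in WT uninjured, 0.515, 0.013 and 0.945 in WT 2 dpi and 8.41, 4.32 and 8.11 in mych-/- 2 dpi libraries, and si:dkey-238k10.1 read 1.99, 0.448 and 0 CPM in WT uninjured, 0.0643, 0.195 and 0.857 in WT 2 dpi and 11.7, 13.3 and 21.2 in mych-/- 2 dpi libraries. All 3 were near 0 in WT 2 dpi glia and well above the uninjured level in mych-/- glia.

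The genes were spread over the genome. By symbol 50 of the 63 could be placed on a chromosome in the RefSeq annotation of the GRCz12tu assembly, on 22 chromosomes. Of them 1 gene without a role shares the chromosome of mych, which holds 4.38% of the 16009 tested genes that could be placed. The most on one chromosome was 7 (14%), where 4.53% of genes lie, a chromosome picked because it held the most. Only 1 pair lay within 10 annotated genes of each other, ERO1A and SAMD4A, which are direct neighbours there.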

How the data were processed

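GFP+ MG of WT uninjured, WT 2 dpi and mych-/- 2 dpi retinas were profiled by polyA RNA-seq. Each group had 3 libraries. Reads were, per the methods, mapped to the zebrafish genome (GRCz11), and the submitters' processing notes name cutadapt 2.3, FastQC 0.11.8, STAR 2.7.8a, RSEM 1.3.3 and DESeq2, with no roles. The authors deposited raw counts per Ensembl gene, not normalized, which may be rounded RSEM estimates that split reads between similar genes. The use of strand is not given in the sources used here, so overlapping and antisense genes are uncertain. Symbols follow the names table, in zebrafish or human style. Library totals were 46835977 to 77133615 counts. The floor of 3 counts covers counting error only.

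The rule was applied to CPM from column totals. Tests used edgeR 4.0.16 under R 4.3.3 (filterByExpr, TMM, 1 robust quasi-likelihood fit of 9 libraries, Benjamini-Hochberg adjustment over 20484 genes). A call needed an adjusted p no higher than 0.05 and a log2 fold change beyond 0.5 in size. The SE given with edgeR's log2 fold changes was derived from the test, as the size of the change divided by the square root of its F statistic. The fit was tested on simulated data with 200 changed genes.

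The members, the lists and the tests were chosen with earlier results of these data known, and the roles and 7 of the lists after the members were seen. A pattern for complement genes caught unrelated symbols and was not used. Named genes were the 25 members with the largest ratio, the 10 with the highest level, those on fixed lists, the 5 on each side of the threshold, mych, and list genes called between genotypes with a mean of at least 5 CPM (at most 4 a list). Others were named after their values were seen, to describe the roles. Alternatives were library size alone or DESeq2 size factors as the scaling, no filter, DESeq2 1.42.0, 6 libraries only, a replicate block, and leaving out each library. Promoter motifs were not analysed here.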

Additional observations from a re-analysis of the deposited data

How the results depend on the processing

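The number of genes that meet the rule depends on its thresholds, with 195 at a fold of 1.5, 15 at 3, 40 with a floor of 10 CPM in mych-/- glia, 103 with 2 CPM and 100 without the condition on overlap. Other scalings left 51 (TMM, 49 of the 63 kept) and 46 (DESeq2 size factors, 45 kept), and leaving out 1 library gave 65 to 128 (128 without mych-/- replicate 2 and 96 without mych-/- replicate 3), of which 53 to 61 were among the 63. Libraries with 1 replicate number, each set against its group mean, correlated by −0.075 to 0.09, so the replicate numbers were not taken to pair samples. Genes called between mych-/- and WT 2 dpi glia numbered 347, and 214 with library size only, 1785 with DESeq2, 219 in a fit of the 6 libraries and 111 with the replicate block. Leaving out 1 library gave 8 (WT 2 dpi replicate 2) to 1026 (mych-/- replicate 2) genes, so that count rests on single libraries. Of the 14 members called there, 1 remained without WT 2 dpi replicate 2 or without mych-/- replicate 1, and 2 without WT 2 dpi replicate 3. The fixed lists held 13 such calls, 126 with DESeq2 and 4 with the replicate block. The count of members called with injury stayed at 18 to 26 in all alternatives (22 with the replicate block), and the counts of genes called with injury (7040 to 9659) and between mych-/- and uninjured glia (3801 to 6540) stayed within 1.5 times the reported ones. For the second BMP2 ID, near 0 between genotypes, leaving out 1 library gave −0.30 to 0.38, and 3 fits gave log2 fold changes below 0 (−0.25 without WT 2 dpi replicate 1, −0.01 without WT 2 dpi replicate 2 and −0.30 without mych-/- replicate 2). The cause of these differences was not tested.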
